A study of Mus musculus with 47 samples.

Results

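The MS4A genes encode small membrane proteins that cross the membrane several times, and macrophages express a subset of them. This account follows the 6 members Ms4a4a, Ms4a4c, Ms4a6b, Ms4a6c, Ms4a6d and Ms4a7, which were found by gene symbol in all 7 deposited RNA-seq tables, among 51912 genes in bone marrow-derived macrophages (BMDMs) and 12771 to 23772 genes in the tables of the Raw264.7 macrophage line. The study asked how the chromatin reader ZMYND8 restrains inflammatory genes in mouse macrophages, and 12 of its 47 samples are RNA-seq libraries. BMDMs came from bone marrow of C57BL/6 mice kept for 5 days in 20 ng/ml M-CSF. WT mice were littermates that carried Zmynd8 fl/fl without Cre, and Zmynd8 cKO mice carried Zmynd8 fl/fl, with exons 6 and 7 floxed, and a Cre expressed from the myeloid Lyz2 locus. Cells of each genotype were untreated (M0, here NT), treated for 6 h with LPS, a component of the bacterial envelope, at 100 ng/ml (M1), or with the cytokine IL-4 at 20 ng/ml (M2). The 6 Raw264.7 libraries came from cells in which Zmynd8 or p65 (Rela) had been disrupted with a lentiviral guide RNA: Zmynd8 KO, the same with WT Zmynd8 or with the D/E-A mutant put back, p65 KO, and the same with WT p65 or with the K122R mutant put back. The p65 lines are labelled as LPS-treated, the study describes the WT Zmynd8 and D/E-A lines as LPS-treated, and for Zmynd8 KO no treatment is labelled. The header of the WT p65 column speaks of WT cells under LPS without mentioning p65 KO, so that unmodified Raw264.7 cells cannot be told apart from the rescued line there. Every condition has 1 library, so a difference between 2 libraries has no replicate check. For the BMDMs, each library mixed 3 biological replicates according to the Methods; for the Raw264.7 libraries this is not given in the sources used here.

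In this family, MS4A1 (CD20) marks B cells, MS4A2 is a chain of the high-affinity IgE receptor of mast cells and basophils, and MS4A3 marks committed granulocyte and monocyte progenitors. MS4A4A is a surface protein of tissue macrophages and of macrophages exposed to IL-4, and it associates with the beta-glucan receptor dectin-1 (Clec7a). The human MS4A gene cluster is known for variants linked to Alzheimer's disease and to the level of soluble TREM2. Ms4a4c and the mouse Ms4a6 genes are often seen among interferon-responsive transcripts of myeloid cells.

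Some facts of the libraries bear on what follows. Totals ranged from 22597408 to 28386612 counts in BMDMs and from 15127110 to 21042628 reads in Raw264.7 cells. The targeted gene was within a fold of 1.2 between the BMDM libraries labelled cKO and WT: Zmynd8 had 2284 counts in WT and 1842 in cKO in NT, 1967 and 2033 with LPS, and 3636 and 3944 with IL-4. A count over the whole gene cannot show the loss of a pair of exons, so these libraries are called by their label, and cKO below means the library labelled Zmynd8 cKO. Levels are given as CPM (counts scaled to the library total) or, for Raw264.7 cells, as RPM (reads scaled in the same way). All 8 macrophage marker genes, among them Adgre1 and Csf1r, were above 0 in every library, although Mertk had only 2 to 4 reads in the p65 lines. In BMDMs, B cell genes summed to at most 17.2 CPM and mast cell and basophil genes to at most 1.33 CPM. The 3 Zmynd8 lines stood apart from the 3 p65 lines. The summed level of 8 neutrophil genes was 4429 to 10360 RPM in the Zmynd8 lines and 0.180 to 0.320 in the p65 lines, that of 4 monocyte genes was 892 to 1254 against 12.9 to 14.9, and that of 5 B cell genes 140 to 193 against 5.95 to 8.83. The p65 tables list 3 of the 8, 3 of the 4 and 4 of the 5 genes, and their sums cover those alone. Xist, which is silent in cells of male mice, was at 338 to 462 RPM in the Zmynd8 lines and at most 0.198 in the p65 lines, while Raw264.7 cells were established from a male mouse. The ribosomal sequence Rn18s-rs5 took 6.50% to 13.8% of reads in the Zmynd8 lines and 0.180% to 0.510% in the p65 lines. These values go against the label of a shared cell line, and the Zmynd8 and p65 lines are therefore treated separately.

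The 6 genes lie side by side with other Ms4a genes on chromosome 19. In the mm10 coordinates of the deposited tables, Ms4a7 occupies chr19:11321039-11336146 on the minus strand. Ms4a4a follows at chr19:11375488-11392915, Ms4a4c at chr19:11404717-11427246, Ms4a6c at chr19:11469041-11487069 and Ms4a6b at chr19:11518559-11530403, all on the plus strand, and Ms4a6d closes the row at chr19:11586606-11604804 on the minus strand. The stretch from the first to the last member is 283.8 kb, and all are annotated as protein-coding in GENCODE M21. Some members share sequence with other genes, within the family or outside it. Of all 50-base windows in its annotated transcripts, Ms4a6c had 10.5% in common with another gene, mostly Ms4a6b, and Ms4a4c had 8.19%, mostly in common with Ms4a4b. The share was 3.57% for Ms4a6b, 2.54% for Ms4a6d, 0.306% for Ms4a7 and 0 of 787 windows for Ms4a4a. How reads that match more than 1 gene were counted is not given in the sources used here, so small differences of Ms4a6b, Ms4a6c and Ms4a4c are uncertain.

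RefSeq start sites on GRCm38.p6 gave 6 promoter windows (250 bases before to 50 after the start) for 5 members, with 2 for Ms4a7. These stretches are shown because Ms4a7 was higher and Ms4a6b and Ms4a6c lower after IL-4 in WT, and no exon annotated by RefSeq or by GENCODE overlaps them. Ms4a4a was also higher there (log2 ratio 0.92) and Ms4a4c lower (-0.33), and their windows are not shown. In Ms4a7 (chr19:11336147-11336396, minus strand) the capitals mark TTCNNNNGAA, the spacing to which the IL-4-activated factor STAT6 binds. In Ms4a6b (chr19:11518309-11518452, plus strand) and Ms4a6c (chr19:11469118-11469352, plus strand) the capitals mark a run of 24 bases that both windows hold.
Ms4a7: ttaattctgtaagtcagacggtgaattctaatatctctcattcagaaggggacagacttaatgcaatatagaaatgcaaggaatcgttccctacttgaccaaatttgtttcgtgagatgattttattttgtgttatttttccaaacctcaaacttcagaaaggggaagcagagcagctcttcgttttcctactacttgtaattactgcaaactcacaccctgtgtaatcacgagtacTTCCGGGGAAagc
Ms4a6b: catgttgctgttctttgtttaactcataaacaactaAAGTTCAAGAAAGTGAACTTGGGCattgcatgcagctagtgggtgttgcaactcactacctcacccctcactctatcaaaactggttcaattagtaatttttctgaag
Ms4a6c: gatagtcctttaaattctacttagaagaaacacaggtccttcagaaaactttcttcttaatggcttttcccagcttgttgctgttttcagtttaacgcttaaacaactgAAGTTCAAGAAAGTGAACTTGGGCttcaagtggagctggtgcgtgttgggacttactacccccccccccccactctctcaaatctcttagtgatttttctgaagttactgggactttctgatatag
The Ms4a6b and Ms4a6c windows also share a second run of 48 bases nearer to the start. On both strands, TTCNNNNGAA was found in 2 of the 6 windows, 1 of Ms4a7 and that of Ms4a6b, and in 6.95% of all 32851 promoter windows. The match of Ms4a6b lies after the printed bases. The interferon-stimulated response element GAAANNGAAA was found in none of the 6 and in 3.44% of all. Its shorter form GAAANNGAA, which was looked for after the shared run had been seen and which lies inside it, was found in 4 of the 6, those of Ms4a6b and Ms4a6c and both of Ms4a7, and in 8.56% of all. The NF-κB consensus was found in the Ms4a4a window alone (8.46% of all), TGANTCA of AP-1 in 1 Ms4a7 window (7.81%), and GAGGAAGT of PU.1 in none of the 6 (3.20%). These are letter matches and not measured binding. The deposited spans of Ms4a4c and Ms4a6c, and the GENCODE model of Ms4a6b, begin before the RefSeq windows, so other start sites may be in use.

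The level of each member can be compared with the others only per transcript length, for which the authors' TPM was used. In untreated WT BMDMs the order was Ms4a7 (690 TPM), Ms4a6d (423), Ms4a6c (382), Ms4a4a (252), Ms4a6b (124) and Ms4a4c (81.8). In untreated cells labelled cKO it was Ms4a7 (494 TPM), Ms4a6d (218), Ms4a6c (129), Ms4a6b (33.3), Ms4a4a (32.5) and Ms4a4c (13.0). After LPS Ms4a4c came first, at 1876 TPM in WT and 1682 in cKO, and stood at rank 67 and rank 77 among all genes of its library. Ms4a6d (1506 and 1338 TPM), Ms4a6c (889 and 931), Ms4a4a (417 and 419), Ms4a7 (363 and 337) and Ms4a6b (266 and 264) followed, in the same order in both libraries. After IL-4 Ms4a7 was again first, at 1369 TPM in WT and 1316 in cKO, and Ms4a6b was last, at 41.8 and 49.3. There Ms4a4a (531 and 393 TPM), Ms4a6d (447 and 403), Ms4a6c (264 and 308) and Ms4a4c (78.9 and 141) lay between. With 1 library per condition no spread can be set beside these orders, and the neighbours that changed places between the genotypes were Ms4a4a and Ms4a6b in NT and Ms4a4a and Ms4a6d after IL-4. The summed level of the 6 members was 1953 TPM in WT and 920 in cKO without treatment, 5317 and 4971 with LPS, and 2733 and 2610 with IL-4.

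**Figure D1:**
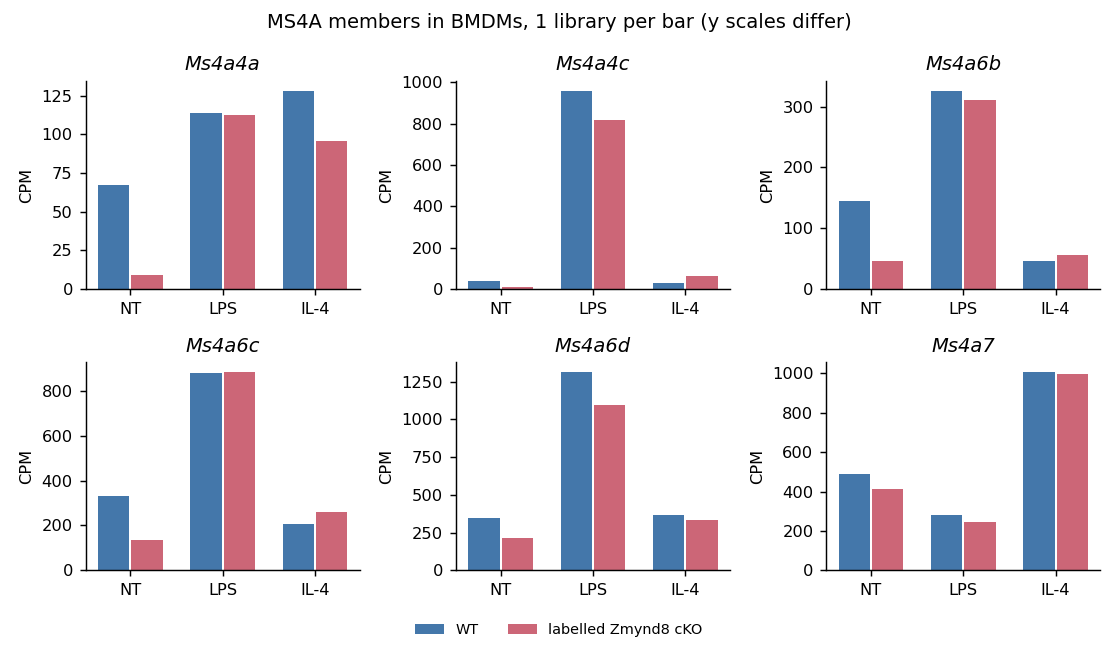
The level in CPM (y axis, from 0, a scale of its own in each panel) of the 6 members in the 6 BMDM libraries, with treatment on the x axis, WT in blue and the libraries labelled Zmynd8 cKO in red, 1 library per bar. In NT the red bar is below the blue one for every member, from 8.76 against 67.5 CPM for Ms4a4a to 413 against 491 CPM for Ms4a7.

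LPS raised 5 of the 6 members in both genotypes, and Ms4a7 was the exception. For the tests, the 6 BMDM libraries were fitted together with genotype and treatment as additive terms, so that the spread is how far the genotypes differ in their response. By edgeR's quasi-likelihood test with Benjamini-Hochberg adjustment over 13726 genes, 5 members were called higher at an adjusted p under 0.05 and none lower, against 24.7% of all genes called higher and 24.7% called lower. The median log2 fold change was 2.64 over the members and -0.02 over all genes.
Ms4a4c had 36.6 CPM in WT and 9.56 CPM in cKO without treatment, and 959 and 820 CPM after LPS. Both LPS libraries were above every other library, and the fitted log2 fold change was 6.00 (SE 0.76, edgeR adjusted p = 0.001136). Ms4a6d went from 349 and 216 CPM to 1311 and 1098 CPM, again without overlap, with a log2 fold change of 2.76 (SE 0.25, edgeR adjusted p = 0.000345).
Ms4a6c went from 333 and 133 CPM to 880 and 882 CPM (log2 fold change 2.63, SE 0.41, edgeR adjusted p = 0.002644). Ms4a6b went from 144 and 45.3 CPM to 326 and 311 CPM (2.52, SE 0.46, edgeR adjusted p = 0.004857). For both genes the LPS libraries were nearly alike and the untreated ones were not.
Ms4a4a went from 67.5 and 8.76 CPM to 114 and 113 CPM (2.65, SE 0.67, edgeR adjusted p = 0.01735). Leaving out the untreated cKO library lowered these fitted values and leaving out the untreated WT library raised them, from 1.49 to 4.18 for Ms4a4a, 5.05 to 7.40 for Ms4a4c, 1.73 to 3.47 for Ms4a6b and 1.96 to 3.41 for Ms4a6c, and all stayed past the threshold. Ms4a7, a gene of mature macrophages, went from 491 and 413 CPM to 278 and 245 CPM. Its fitted log2 fold change was -0.14 (SE 0.21, edgeR adjusted p = 0.5969) with TMM scaling, which sets the bulk of genes level. When library totals were used for scaling, the median of all genes fell to -0.66 and Ms4a7 was called lower (-0.78, edgeR adjusted p = 0.01552).

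Within each genotype the rise with LPS was larger in the libraries labelled cKO for these 5 members. On library totals (log2 of CPM plus 1, 1 library against 1, a fold of at least 1.2 taken as a call), 5 members were higher and 1 lower in WT, against 21.7% and 63% of all genes, and 5 were higher and 1 lower in cKO, against 25% and 60.5%. At a fold of 2, 4 members were higher and none lower in WT, against 10.5% and 32.8%, and 5 were higher and none lower in cKO, against 13.2% and 32.8%. The median of all genes was itself at -0.58 in WT and -0.55 in cKO. In WT the log2 ratio was 4.67 for Ms4a4c, 1.91 for Ms4a6d, 1.40 for Ms4a6c, 1.17 for Ms4a6b, 0.74 for Ms4a4a and -0.82 for Ms4a7. In cKO it was 6.28 for Ms4a4c, 3.54 for Ms4a4a, 2.75 for Ms4a6b, 2.72 for Ms4a6c, 2.34 for Ms4a6d and -0.75 for Ms4a7. For Ms4a7 the 2 values are close to the shift of all genes, and with TMM scaling they were -0.20 and -0.19, which is no call. Since the LPS levels were similar, the gap between the genotypes lies in the untreated libraries. The 4 monocyte genes moved too: their summed level was 7.40 and 16.0 CPM in NT and 236 and 260 CPM after LPS, all 4 were above 0 in each library, and their part in the result was not tested. A larger share of monocytes and more RNA per cell cannot be told apart in bulk libraries.

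**Figure D2:**
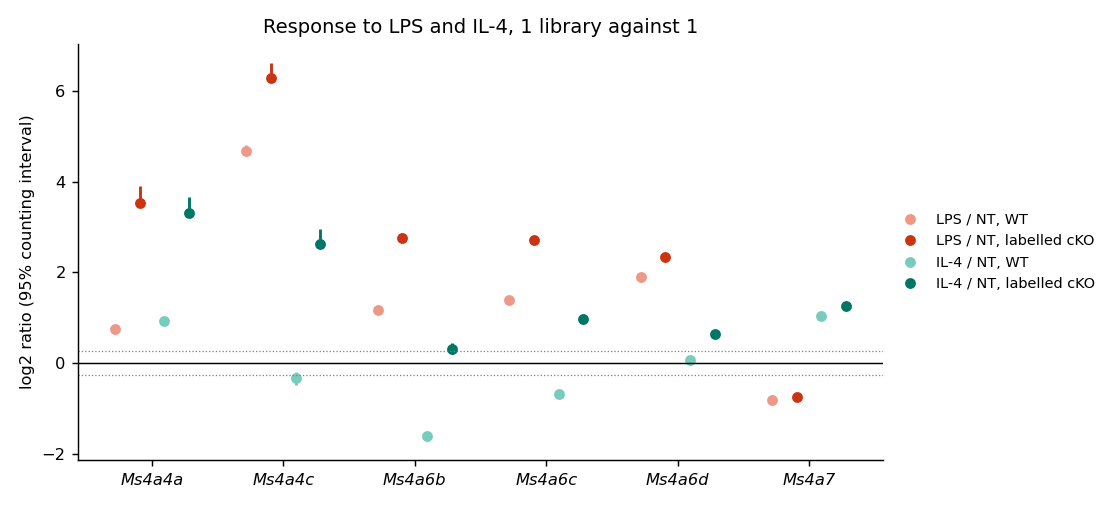
The log2 ratio of CPM plus 1 to the untreated library (y axis) for each member (x axis), after LPS in red and after IL-4 in green, with WT in the lighter and the libraries labelled cKO in the darker shade. Vertical lines are 95% Clopper-Pearson intervals of the ratio of reads (counting error only, without the added 1), dotted lines mark a fold of 1.2, and the IL-4 points of Ms4a4c, Ms4a6b and Ms4a6c lie below 0 in WT and above 0 in cKO.

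IL-4 raised Ms4a7, and the values of the other 5 members did not pass the test. In the additive fit 1 member was called higher and none lower, against 10.2% and 9.77% of all genes, with a median log2 fold change of 0.57 over the members and 0.01 over all genes. Ms4a7 stood at 1004 CPM in WT and 994 CPM in cKO after IL-4, above its other 4 libraries (245 to 491 CPM). Its log2 fold change was 0.98 (SE 0.21, edgeR adjusted p = 0.02106), and the call was lost without the WT IL-4 library (adjusted p = 0.1169) and without the cKO IL-4 library (adjusted p = 0.2334).
Ms4a4a had 128 and 96 CPM after IL-4, against 67.5 and 8.76 CPM in NT, and did not pass the test (1.75, SE 0.65, edgeR adjusted p = 0.1085). That depended on which library was left out: without the untreated WT library its edgeR adjusted p was 4.153e-05, and without the WT LPS library it was 0.00278.
Ms4a6d (364 and 334 CPM) had a fitted value of 0.17, Ms4a6c (206 and 260 CPM) of -0.08, Ms4a4c (28.9 and 64.0 CPM) of 0.99 and Ms4a6b (46.5 and 56.5 CPM) of -0.90, with edgeR adjusted p between 0.2037 and 0.9058.

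The ratios of IL-4 to NT differed between the genotypes, and much of that gap lies in the untreated libraries. Ms4a6b had 144 CPM in WT and 45.3 CPM in cKO in NT, and 46.5 and 56.5 CPM after IL-4. Ms4a6c had 333 and 133 CPM in NT, and 206 and 260 CPM after IL-4. Ms4a4c differed in both, at 36.6 and 9.56 CPM in NT and 28.9 and 64.0 CPM after IL-4. In WT, 2 members were higher and 3 lower than in NT at a fold of 1.2, against 41.3% and 23.1% of all genes. In cKO all 6 were higher, against 44.7%, and none was lower, against 26.2%. At a fold of 2, WT had 1 higher and 1 lower, against 10% and 6.19%, and cKO had 3 higher and none lower, against 15% and 6.09%. The median of all genes was 0.15 in WT and 0.17 in cKO. Ms4a6b had a log2 ratio of -1.61 in WT and 0.31 in cKO, Ms4a4c of -0.33 and 2.62, and Ms4a6c of -0.69 and 0.96. Ms4a7 had 1.03 and 1.27, Ms4a4a 0.92 and 3.31, and Ms4a6d 0.06 and 0.63. With TMM scaling the cKO value of Ms4a6b was 0.09 and no call. In the deposited TPM, Ms4a4c in WT was at 78.9 after IL-4 and 81.8 in NT, which is no call. The IL-4 libraries carry other sequencing sample numbers in their titles than NT and LPS, which cannot be told apart from IL-4. They also differed in marker genes of other cells. All 8 neutrophil genes were above 0 there and summed to 385 CPM in WT and 518 in cKO, whereas 3 to 6 of the 8 were above 0 in NT and LPS, with sums of 2.29 to 4.22 CPM. The 4 monocyte genes summed to 87.7 CPM in WT and 201 CPM in cKO after IL-4, against 7.40 and 16.0 CPM in the untreated libraries. The 6 dendritic cell genes summed to 247 and 215 CPM after IL-4, of which Itgax, which macrophages also express, made up 242 and 210 CPM. Their part in the IL-4 results was not tested.

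Without treatment, 5 of the 6 members were lower in the library labelled cKO than in WT. At a fold of 1.2, 29% of the 12463 genes measured were lower and 25% higher, and the median log2 ratio was -1.48 over the members and -0.01 over all genes. At a fold of 2, 4 members were lower and none higher, against 2.86% and 0.971% of all genes. Ms4a4a fell most, from 1768 counts in WT to 198 counts in cKO, a log2 ratio of -2.81 (95% interval of the ratio of reads -3.16 to -2.73). Ms4a4c went from 959 to 216 counts (-1.83, -2.16 to -1.72) and Ms4a6b from 3776 to 1023 counts (-1.65, -1.77 to -1.57). Ms4a6c went from 8736 to 3011 counts (-1.32, -1.38 to -1.26) and Ms4a6d from 9152 to 4879 counts (-0.69, -0.74 to -0.64). Ms4a7 had 12871 and 9326 counts (-0.25, -0.29 to -0.21), which is within a fold of 1.2. In the deposited TPM Ms4a7 was at 690 in WT and 494 in cKO, which is lower by more than that fold. The intervals cover counting error only, and say nothing of how 2 untreated WT libraries would differ.

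After LPS no member differed by a fold of 1.2 between cKO and WT on library totals, while 13.3% of all genes were lower and 22.6% higher, and 0.331% and 0.573% were so at a fold of 2. The log2 ratios ran from -0.26 for Ms4a6d (25724 counts against 32637) to 0.00 for Ms4a6c (20656 against 21913). Ms4a4c, at -0.22, Ms4a7, at -0.18, and Ms4a6b, at -0.07, were also below WT by more than counting error. With TMM scaling Ms4a6d was called lower, at -0.29, and with median-ratio factors Ms4a6d and Ms4a4c were, at -0.30 and -0.27.
After IL-4 the members split. Ms4a4c (1673 counts in cKO against 820 in WT, log2 ratio 1.12), Ms4a6c (6801 against 5849, 0.34) and Ms4a6b (1475 against 1320, 0.27) were higher in cKO, against 17.3% of all genes, and Ms4a4a (2506 against 3639, -0.41) was lower, against 13.4%. Ms4a6d (-0.12) and Ms4a7 (-0.01) were not called. The call of Ms4a6b was lost with TMM scaling (0.21) and with the deposited TPM (0.23), and that of Ms4a6c with TPM (0.22). Only Ms4a4c passed a fold of 2, against 1.56% of all genes higher and 0.408% lower.

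**Figure D3:**
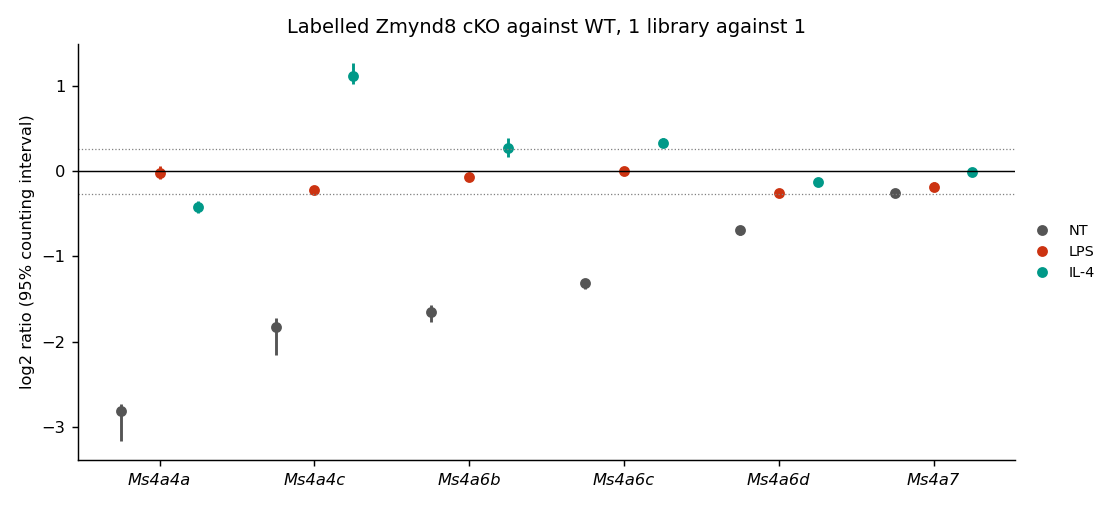
The log2 ratio of CPM plus 1 between the library labelled Zmynd8 cKO and the WT library (y axis) for each member (x axis) in NT (grey), after LPS (red) and after IL-4 (green). Lines are 95% Clopper-Pearson intervals of the ratio of reads (counting error only), dotted lines mark a fold of 1.2, and the NT points run from -2.81 for Ms4a4a to -0.25 for Ms4a7 while the LPS points lie between -0.26 and 0.00.

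Over the 3 treatments together no member was called for genotype. The fit called 0 of 13726 genes (0%), 417 genes had an unadjusted p under 0.05, and DESeq2's Wald test called 27 higher and 3 lower. Fitted log2 fold changes of the members ran from -1.05 (SE 0.54) for Ms4a4a to -0.16 (SE 0.17) for Ms4a7, all with an edgeR adjusted p of 0.9989. For 3 members the direction rested on the untreated pair: without the untreated cKO library the values of Ms4a4c, Ms4a6b and Ms4a6c were 0.42, 0.08 and 0.14, and without the untreated WT library they were 0.42, 0.07 and 0.14. Ms4a4a, Ms4a6d and Ms4a7 stayed below 0 whichever library was left out, at -1.64 to -0.24, -0.48 to -0.22 and -0.22 to -0.12.

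Interferon-response genes are given beside the members, which they matched in direction in NT but only in part after IL-4. Of 12 listed genes, among them Ifit1, Isg15 and Irf7, all 12 were lower in cKO without treatment, against 29% of all genes, with a median log2 ratio of -1.93. After LPS 0 were higher and 2 lower (median -0.05), and after IL-4 11 were higher, against 17.3% of all genes, and 0 lower (median 1.37), where 3 of the 6 members were higher and 1 lower. Their summed level was 3636 CPM in WT and 804 in cKO without treatment, 39203 and 39550 with LPS, and 1236 and 2283 with IL-4. Xist was lower in cKO without treatment (323 CPM against 740 in WT), higher with LPS (429 against 246) and close to WT with IL-4 (1057 against 1108). Lyz2, the gene that carries the Cre, was lower in cKO than in WT in each treatment, at 7202 against 10950 CPM untreated, 2892 against 6902 CPM after LPS and 5245 against 8941 CPM after IL-4. Lyz1, a close copy that may share reads with it, was higher in cKO in each, at 1400 against 106 counts untreated, 1032 against 99 with LPS and 3903 against 62 with IL-4. Their part in the members' values was not tested.

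**Figure D4:**
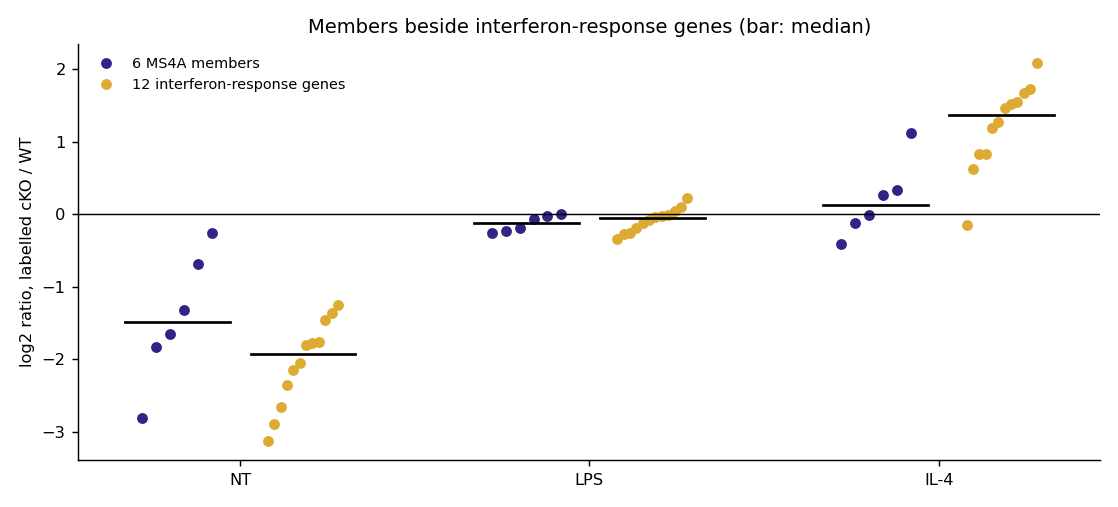
The log2 ratio of cKO to WT (y axis) for the 6 members (blue) and for 12 interferon-response genes (yellow) in NT, after LPS and after IL-4 (x axis), 1 gene per point with a bar at each median. The medians of the members are -1.48, -0.12 and 0.13 and those of the interferon-response genes -1.93, -0.05 and 1.37.

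The genes whose pattern over the 6 BMDM libraries was most like that of a member were named by the root mean square (RMS) difference of centred log2(CPM plus 1) among 8268 genes. For Ms4a4c they were Gbp3 (0.16), a guanylate-binding protein, Oasl1 (0.20) and Ifi208 (0.27). For Ms4a6b they were Ifi203-ps (0.19), Nectin4 (0.21) and Ifi204 (0.22), and for Ms4a6c Setdb2 (0.12), Samd9l (0.15) and H2-T23 (0.15). For Ms4a6d they were Phlpp1 (0.12), H2-T23 (0.14), a non-classical MHC class I gene, and Trex1 (0.14), a DNA exonuclease. For Ms4a4a the nearest were Gm4070 (0.32), Gvin1 (0.41), a very large interferon-inducible GTPase, and Gm43197 (0.42). For Ms4a7 they were Ttc21b (0.06), Bcr (0.09) and Hdac8 (0.11), all at 2.01 to 13.3 CPM.
Among the members the closest pair was Ms4a6c and Ms4a6d (RMS 0.25), then Ms4a6b and Ms4a6c (0.36), and the farthest was Ms4a4c and Ms4a7 (3.00). The 6 libraries are shared by all these values, so they are descriptions only.

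Of 16 other genes of the family and their relatives, 14 were listed in the BMDM tables and 6 had enough counts for the fit. LPS raised 3 and lowered none of these, against 24.7% of all genes called higher and 24.7% called lower. Ms4a14 had a log2 fold change of 1.38 (SE 0.26, edgeR adjusted p = 0.005579), Ms4a4b of 2.93 (SE 0.65, edgeR adjusted p = 0.01058) and Ms4a8a of 3.62 (SE 0.89, edgeR adjusted p = 0.01491), but Ms4a8a had only 1 and 3 counts in NT and 19 and 14 after LPS. Ms4a4b, at 7 to 107 counts, shares sequence with Ms4a4c.
IL-4 raised 4 and lowered none, against 10.2% of all genes called higher and 9.77% called lower. Ms4a14 went from 60.8 and 38.9 CPM to 200.3 and 248 CPM (edgeR adjusted p = 0.003829). Tmem176a (5.74, SE 0.47, edgeR adjusted p = 0.0006517) and Tmem176b (5.71, SE 0.30, edgeR adjusted p = 0.0002526), relatives of the family, went from 2.52 and 2.61 CPM and from 4.27 and 6.20 CPM to 131 and 177 CPM and to 265 and 354 CPM. Ms4a3 had 74 and 92 counts after IL-4 and 0 in the other 4 libraries, beside the neutrophil genes given above, of which it is one. Ms4a1 had 2 to 7 counts in every BMDM library and Ms4a2 at most 2.

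Of 6 genes that encode partners of MS4A4A or their signalling chain, LPS raised Fcer1g, the Fc receptor gamma chain (1.64, SE 0.27, edgeR adjusted p = 0.002966), and the kinase Syk (1.18, SE 0.25, edgeR adjusted p = 0.008228). It lowered Trem2 (-1.89, SE 0.29, edgeR adjusted p = 0.002271) and Clec7a (-0.98, SE 0.23, edgeR adjusted p = 0.012), and Tyrobp and Card9 did not pass. Over all genes, 24.7% were called higher and 24.7% lower after LPS. IL-4 raised Clec7a (3.24, SE 0.24, edgeR adjusted p = 0.000513) and no other of the 6. It lowered none, and over all genes 10.2% were called higher and 9.77% lower. Genotype moved none past the test, which called 0 of all 13726 genes for genotype. Of 8 genes known to respond to IL-4, 7 were fitted. After IL-4, 6 of these were called higher and 1 lower, against 10.2% and 9.77% of all genes.

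In the Raw264.7 lines the members were far more abundant in the Zmynd8 lines than in the p65 lines, as were the markers of other cells given above. The 6 summed to 3396 RPM in Zmynd8 KO, 3003 with WT Zmynd8, 3580 with D/E-A, 286 in p65 KO, 420 with WT p65 and 643 with K122R. Ms4a4a and Ms4a7, at 2 to 4 and 2 to 9 reads, were at or near the floor of 3 reads in the p65 lines, whereas they had 3522 to 4939 and 3377 to 5656 reads in the Zmynd8 lines. Ms4a4c was at 1240 to 1406 RPM in the Zmynd8 lines and had 162 to 592 reads in the p65 lines. There Ms4a6b had 303 to 848 reads, Ms4a6c 1846 to 4565 and Ms4a6d 2001 to 4687, and these values are not divided by length, so they set no order among the genes. The tables were normalised separately, so ratios are given within a table only.

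**Figure D5:**
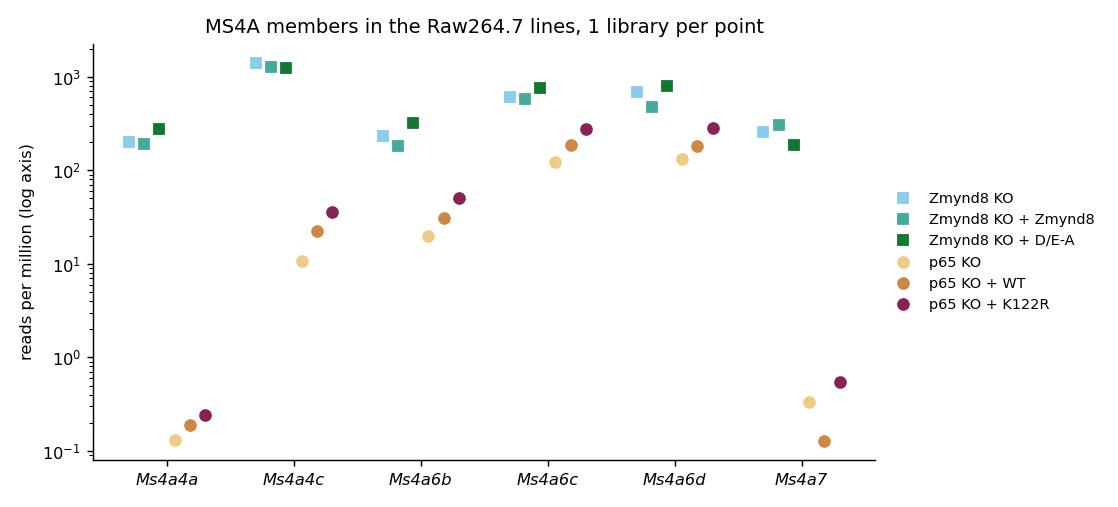
The level in RPM (y axis, log axis) of each member (x axis) in the 6 Raw264.7 libraries, squares for the Zmynd8 lines and circles for the p65 lines, 1 library per point. Ms4a4a and Ms4a7 lie at 0.128 to 0.540 RPM in the p65 lines and at 188 to 308 in the Zmynd8 lines.

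With D/E-A in place of WT Zmynd8, 4 members were higher and 1 lower at a fold of 1.2, against 36.7% and 35.9% of all 12771 genes listed. None passed a fold of 2, against 6.94% higher and 11.4% lower. Ms4a6b had 5788 and 3328 reads (log2 ratio 0.87, 95% interval 0.80 to 0.93), Ms4a6d 14395 and 8790 (0.78, 0.74 to 0.82), Ms4a4a 4939 and 3522 (0.55, 0.49 to 0.62) and Ms4a6c 13465 and 10568 (0.42, 0.38 to 0.45). Ms4a7 was lower, at 3377 against 5656 reads (-0.68, -0.74 to -0.62), and Ms4a4c was level at -0.01. In the same comparison 7 of 8 macrophage genes were higher and all 8 neutrophil genes lower, and the neutrophil sum was 4429 against 10360 RPM. Their part in the members' values was not tested. Zmynd8 itself had 497 reads with D/E-A and 485 with WT Zmynd8.

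In Zmynd8 KO against the same WT Zmynd8 library, 2 members were higher and none lower, against 33.8% and 36.5% of all genes. A fold of 2 was reached by none, against 8.29% and 17.3%. Ms4a6d had 14587 and 8790 reads (0.61, 0.57 to 0.65) and Ms4a6b 4877 and 3328 (0.43, 0.37 to 0.49). The others had ratios of 0.22 (Ms4a4c), 0.15 (Ms4a6c), 0.14 (Ms4a4a) and -0.17 (Ms4a7). The deposited value of Zmynd8 was 116 in KO and 506 with WT Zmynd8. Unlike the other values, that of the KO did not correspond to whole reads. Since both comparisons use the same WT Zmynd8 library, a value that is off there would move both. Here 7 of 8 macrophage genes were higher and 4 of 8 neutrophil genes lower. Of the 12 interferon-response genes, 7 were higher and none lower in Zmynd8 KO, and 7 higher and 2 lower with D/E-A.

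Among the p65 lines, the 4 members with more than 100 reads were all higher with K122R than with WT p65 and all lower in p65 KO. For K122R the call rule gave 6 higher and none lower, against 30.8% and 32.5% of all genes, which includes Ms4a4a (4 reads against 3) and Ms4a7 (9 against 2). Ms4a7 alone passed a fold of 2 (log2 ratio 1.78, 95% interval -0.05 to 5.47), against 10.5% higher and 9.46% lower, and with library totals its value was 0.45. The 6 calls fell to 5 with library totals, without Ms4a4a (0.06), and to 4 with a mean value of at least 10, without Ms4a4a and Ms4a7. Ms4a6b had 848 and 487 reads (0.85, 0.69 to 1.02), Ms4a4c 592 and 351 (0.81, 0.62 to 1.00), Ms4a6d 4687 and 2832 (0.78, 0.71 to 0.85) and Ms4a6c 4565 and 2902 (0.71, 0.64 to 0.78).
For p65 KO the rule gave 5 lower and 1 higher, against 25.7% and 26.3%, including Ms4a4a (2 reads against 3) and Ms4a7 (5 against 2). With a fold of 2, Ms4a4c was lower and Ms4a7 higher, against 6.58% and 9.26%. The call of Ms4a7 rests on these few reads (log2 ratio 1.04, 95% interval -1.24 to 4.76) and was lost at either fold with library totals (0.24) or with a mean value of at least 10. The lower call of Ms4a4a was lost in both of these alternatives too. Ms4a4c had 162 and 351 reads (-1.06, -1.34 to -0.79), Ms4a6b 303 and 487 (-0.63, -0.85 to -0.43), Ms4a6c 1846 and 2902 (-0.60, -0.69 to -0.52) and Ms4a6d 2001 and 2832 (-0.45, -0.54 to -0.37).
Both comparisons rest on the same library of uncertain identity. Rela, which encodes p65, was at 50.6 RPM in p65 KO, 102 with WT p65 and 351 with K122R, so the rescues also differed in Rela level. Interferon-response genes had a median log2 ratio of 0.33 for K122R (7 higher and 1 lower of 12) and 0.08 for p65 KO (0 higher and 1 lower).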

How the data were processed

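RNA-seq was analysed in 12 libraries; the other 35 samples were not used here. For BMDMs the authors deposited estimated counts per gene and TPM, made from polyA libraries aligned with TopHat to the mm10 transcriptome; the counting tool is not given in the sources used here. Estimated counts were rounded to whole counts. For Raw264.7 cells the authors deposited a normalised signal, from which whole reads were recovered for 100% of genes within a tolerance of 0.01, except the value of Zmynd8 in Zmynd8 KO; the D/E-A table lists only genes with at least 21 reads in WT Zmynd8. Columns of the authors' own fold changes and p-values were not used, nor were 2 unlabelled columns of per-sample values. Rows that name no gene (431, 431 and 2 in NT, LPS and IL-4) held no counts.

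The additive fit used edgeR 4.0.16 (R 4.3.3) with TMM scaling on genes passing its expression filter, and DESeq2 1.42.0 as an alternative. Its 2 residual degrees of freedom measure only how the genotypes differ in response. Ratios between 2 libraries used log2(CPM + 1), genes averaging 10 or more counts (Raw264.7: a mean value of 1 or more) and a pseudocount of 1, which understates changes of low genes, with 95% Clopper-Pearson intervals of reads, which cover counting error only. Both procedures were tested on simulated data. The simulated counts for the additive fit held no difference between the genotypes, so they cannot test the spread it used here. Like genes were the 3 with the smallest difference among genes averaging 50 or more counts with a log2 range of 1 or more. Alternatives were other scalings, pseudocounts, filters and folds, TPM, and leaving out each library. The members and gene lists were chosen with earlier results of these data known. Named genes are the members and fixed lists of other family genes, partners, interferon-response, IL-4 and marker genes.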

Additional observations from a re-analysis of the deposited data

Results flagged for a closer look

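For 3 members the ratio of the library labelled cKO to WT had opposite signs in NT and after IL-4. The gap between the 2 log2 ratios was 2.95 for Ms4a4c, 1.92 for Ms4a6b and 1.65 for Ms4a6c. The same gaps (2.95, 1.92 and 1.65) appear as the difference between the IL-4 responses of WT and cKO, since they are made of the same 4 libraries. Between LPS and IL-4 the ratio of cKO to WT also had opposite signs for Ms4a4c, with a gap of 1.35, and for Ms4a6b, with a gap of 0.34. None of these differences was tested, because each condition has 1 library.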

How the results depend on the processing

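No paired analysis was possible because each condition has 1 library and every sample carries replicate number 1, so a block on that number cannot be formed; the additive fit itself compares treatments within each genotype. The 5 calls of members after LPS held in the edgeR and DESeq2 alternatives and when any 1 library was left out; with library totals 1 member, Ms4a7, was also called lower, and 2023 genes were called higher and 6278 lower. After IL-4, 2 members were called higher without a filter on low counts, and leaving out 1 library gave 0 to 3 members higher, 0 to 1 lower, and 824 to 2236 genes higher and 654 to 2103 lower in all. Fitted values that changed sign after IL-4 were those of Ms4a6c with library totals (0.087) and, when 1 library was left out, those of Ms4a4c (-0.14 to 2.22), Ms4a6b (-1.70 to 0.019), Ms4a6c (-0.77 to 0.67) and Ms4a6d (-0.067 to 0.38). For genotype, DESeq2 called 27 genes higher and 3 lower, no filter gave 31 and 1, and leaving out 1 library gave 5 to 35 higher and 0 to 7 lower; the values of Ms4a4c (-1.07 to 0.42), Ms4a6b (-0.87 to 0.077) and Ms4a6c (-0.66 to 0.14) changed sign without either untreated library.

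Between single libraries, cKO against WT after LPS gave 1 member lower with TMM and 2 with median-ratio factors. After IL-4 it gave 1 higher and 0 lower at a fold of 2, and 1 higher with TPM. For LPS against NT, 0 members were lower in either genotype with TMM, with median-ratio factors or at a fold of 2. For IL-4 against NT at a fold of 2, 1 was higher and 1 lower in WT, and 3 were higher in cKO. At a fold of 2 in the Raw264.7 lines, D/E-A gave 0 higher and 0 lower, Zmynd8 KO 0 higher, K122R 1 higher and p65 KO 1 lower; p65 KO gave 0 higher with library totals or with a mean value of at least 10. The cause was not tested.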
